A study of Mus musculus with 48 samples.

Results

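The 42 genes described here encode lysosomal proteins of the mouse: 10 proteases, 14 hydrolases of glycans and sulfate esters, 7 enzymes and activator proteins of lipid breakdown, 8 membrane proteins and 3 regulators. They were chosen by name, as the columns of the deposited tables whose gene symbol was on a fixed list. All 42 were found once in each table, among 19601 genes of the batch-corrected table, and all 42 passed the filter on low counts, which left 14839 genes for testing. Their expression was measured by bulk RNA-seq of polyadenylated RNA from the dissected substantia nigra (SN) of male C57BL/6J mice.

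The mice had been injected once, on a single side of the brain, into the striatum, with preformed fibrils (PFF) of α-synuclein, which seed aggregates of the animal's own α-synuclein, or with monomeric α-synuclein as the control, and then breathed 21% or 11% O2. The mice, for which the labels name no transgene, were 121 days old at injection and gave their SN 90 to 98 days later, with over 91 days in monomer mice at 11% O2 only. Of 48 mice, 42 were kept by the authors: 11 monomer and 12 PFF mice at 21% O2, and 9 monomer and 10 PFF mice at 11% O2. The sources differ on when 11% O2 began, since the methods of the study place it soon after injection and the deposited description places it midway to harvest. Harvest batch 1 held all 4 groups, whereas batch 2 held no monomer mice at 11% O2 and batch 3 no monomer mice at 21% O2. Each batch also had its own dates of birth and injection, which cannot be separated from harvest. In batch 3, 1 monomer mouse at 11% O2 was harvested later than the rest, at 98 days. In the 42 mice, 12360798 to 16566973 batch-corrected counts lay on genes. The dopaminergic marker genes *Th*, *Slc6a3* and *Ddc* were detected in every mouse, as the tissue label requires, but their summed level with 5 further dopaminergic markers ranged from 1106 to 5478 TPM, a unit that gives each gene's share of all transcripts after allowing for gene length. Fewer cells of a type and less RNA per cell cannot be told apart in such samples.

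The lysosome is the acidic compartment in which cells degrade proteins, glycans and lipids delivered by endocytosis and autophagy. Its enzymes are made with signals that route them to the compartment, and the transcription factors TFEB and TFE3 raise the expression of many lysosomal genes by binding a short promoter element with the core CACGTG. In brain, microglia are rich in lysosomal proteases, inherited loss of single hydrolases causes storage diseases that damage neurons, and impaired lysosomal breakdown of α-synuclein is a recurring theme in Parkinson's disease.

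Because TFEB and TFE3 are members of the list, the promoters of the genes were searched for the core element and for longer forms that contain it. Promoters of 38 of the 42 genes were given by RefSeq on GRCm38.p6, as the 250 bases before and 50 bases after the transcription start. *Npc1*, *Ctsb*, *Ctsh* and *Asah1* had no entry. The core CACGTG, read on both strands, lay in a promoter of 12 of these 38 genes (31.6%) and of 8.09% of all 27025 genes with a promoter of that length. The extended form GTCACGTG, which contains the core and was also searched on both strands, lay in promoters of 9 of the 38 (23.7%) and of 2.55% of all genes. These 9 genes are shown with 30 bases around 1 occurrence each, 5′ to 3′ on the strand of the gene, with the extended form in capitals.
Naglu, chr11:101070008-101070037, plus strand: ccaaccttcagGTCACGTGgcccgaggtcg
Glb1, chr9:114401017-114401046, plus strand: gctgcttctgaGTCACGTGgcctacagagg
Gla, chrX:134601183-134601212, minus strand: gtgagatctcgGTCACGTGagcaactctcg
Arsa, chr15:89477424-89477453, minus strand: ttcaactcagtGTCACGTGttgtctgctcc
Ctsa, chr2:164833748-164833777, plus strand: atgagcaaactGTCACGTGatgcagatgct
Ctsd, chr7:142387907-142387936, minus strand: cgcccgcgtctCACGTGACccgttgagggc
Cln3, chr7:126583341-126583370, minus strand: tcacgggtactGTCACGTGacccccaacct
Lamp1, chr8:13159122-13159151, plus strand: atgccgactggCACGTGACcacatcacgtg
Mcoln1, chr8:3500435-3500464, plus strand: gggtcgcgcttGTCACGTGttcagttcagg
The occurrence of *Naglu* began 75 bases before the RefSeq start, and the window spans the start that GENCODE vM21 gives for this gene, at position 101070012. A match to these letters is a description of the sequence and no evidence of binding.

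The 42 genes covered a wide range of levels, all comparisons of which are on the TPM scale, which accounts for transcript length. *Psap*, the precursor of the saposins that activate sphingolipid hydrolases, was the highest, with a mean of 2073 TPM over the 42 mice and a level above 99.9% of the genes of the table. It was followed by the aspartyl protease gene *Ctsd* at 582 TPM, *Lamp1*, which encodes an abundant glycoprotein of the lysosomal membrane, at 563 TPM, and the cysteine proteases *Ctss* at 510.2 TPM and *Ctsb* at 471 TPM. *Ctsd* and *Lamp1* differed by less than the spread between mice of a group. The lowest were *Galc*, the galactosylceramidase of myelin lipid breakdown, at 11.8 TPM and *Ctsc*, a dipeptidyl peptidase, at 10.9 TPM.

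By role, the median level was 107 TPM among lipid enzymes and activators, 99.9 TPM among proteases, 64.2 TPM among membrane proteins, 36.5 TPM among glycan and sulfate ester hydrolases and 18.1 TPM among regulators. The regulator genes stood at 78.1 TPM for *Grn*, which encodes progranulin, 18.1 TPM for *Tfeb* and 16.3 TPM for *Tfe3*. The SD within a group, as a percentage of the group mean, was lowest for *Ppt1* (5.35%) and highest for *Ctsh* (22.5%), with a median of 7.59% over the 42 genes. *Gaa*, *Ctsc* and *Ctss* also varied by 19.4% to 21.1% within groups. Summed over the 42 genes, the share of all TPM was 0.706% ± 0.0301 (SD, n = 11) in monomer and 0.713% ± 0.0169 (n = 12) in PFF mice at 21% O2, and 0.731% ± 0.0414 (n = 9) in monomer and 0.722% ± 0.0334 (n = 10) in PFF mice at 11% O2. The ranges of the 4 groups overlapped.

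The counts were made with no strand setting named, so reads in bases shared with a gene on the other strand cannot be told apart by strand. No option to count a read for several genes was named either. Whether such reads were left out, which would lower the levels of these genes, was not tested. For *Tmem175*, a lysosomal potassium channel gene, 35.3% of exon bases lay in exons of *Dgkq* on the other strand, which had a mean of 43.0 TPM before correction. *Ctsd* shared 34.4% of its exon bases with the gene model *Gm49369* on its own strand (mean 0.0207 TPM before correction), and *Arsb* 32.3% with the noncoding *Gm26527* on the other strand. No gene named *Gm26527* was among those the authors counted. *Ctsl* shared 26.8% with *Gm47123* on the other strand (mean 0 TPM before correction). Exons of *Naglu*, *Lipa*, *Ctss* and *Gaa* overlapped no annotated exon of another gene.

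*Naglu* was the only one of the 42 genes that was called in any comparison. It encodes the enzyme that removes terminal N-acetylglucosamine from heparan sulfate, and it lies at chr11:101070012-101077672 on the plus strand (GRCm38). At 21% O2 its level ranged from 13.9 to 22.2 TPM with a median of 17.7 TPM in the 11 monomer mice, and from 18.9 to 24.9 TPM with a median of 22.2 TPM in the 12 PFF mice. At 11% O2 it ranged from 18.8 to 25.4 TPM with a median of 23.2 TPM in the 9 monomer mice, and from 15.7 to 23.7 TPM with a median of 21.3 TPM in the 10 PFF mice. Monomer mice at 21% O2 had the lowest median, PFF mice at 11% O2 reached lower than the remaining pair of groups, and every pair of groups overlapped.

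*Naglu* rose with PFF at 21% O2, by 0.32 ± 0.064 (SE) on the log2 scale (adjusted p = 0.00129, quasi-likelihood test of edgeR, with the adjustment of Benjamini and Hochberg made over all genes tested). It also rose with 11% O2 in monomer mice, by 0.34 ± 0.068 on the log2 scale (edgeR adjusted p = 0.000523). With both, no further rise was measured: the log2 difference was -0.09 ± 0.069 between PFF and monomer mice at 11% O2 (edgeR adjusted p = 1.00) and -0.07 ± 0.065 between 11% and 21% O2 in PFF mice (edgeR adjusted p = 0.766). The interaction, which is the PFF difference at 11% O2 minus that at 21% O2, was -0.41 ± 0.094 on the log2 scale and was called (edgeR adjusted p = 0.0109). The interaction call was lost in batch 1 alone, the only batch with all 4 groups (-0.46, edgeR adjusted p = 0.307), and with all 48 mice and batch as a term (-0.38, edgeR adjusted p = 0.0999). The 48 mice include a PFF mouse at 11% O2, left out by the authors, with 3134594 counts before correction. The 42 kept mice had at least 12902996. The comparisons of PFF at 21% O2 and of 11% O2 in monomer mice share the monomer mice at 21% O2, and the interaction uses them too. *Naglu* rested on 139 to 269 batch-corrected counts per mouse, the lowest median count of the 42 genes.

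**Figure D1:**
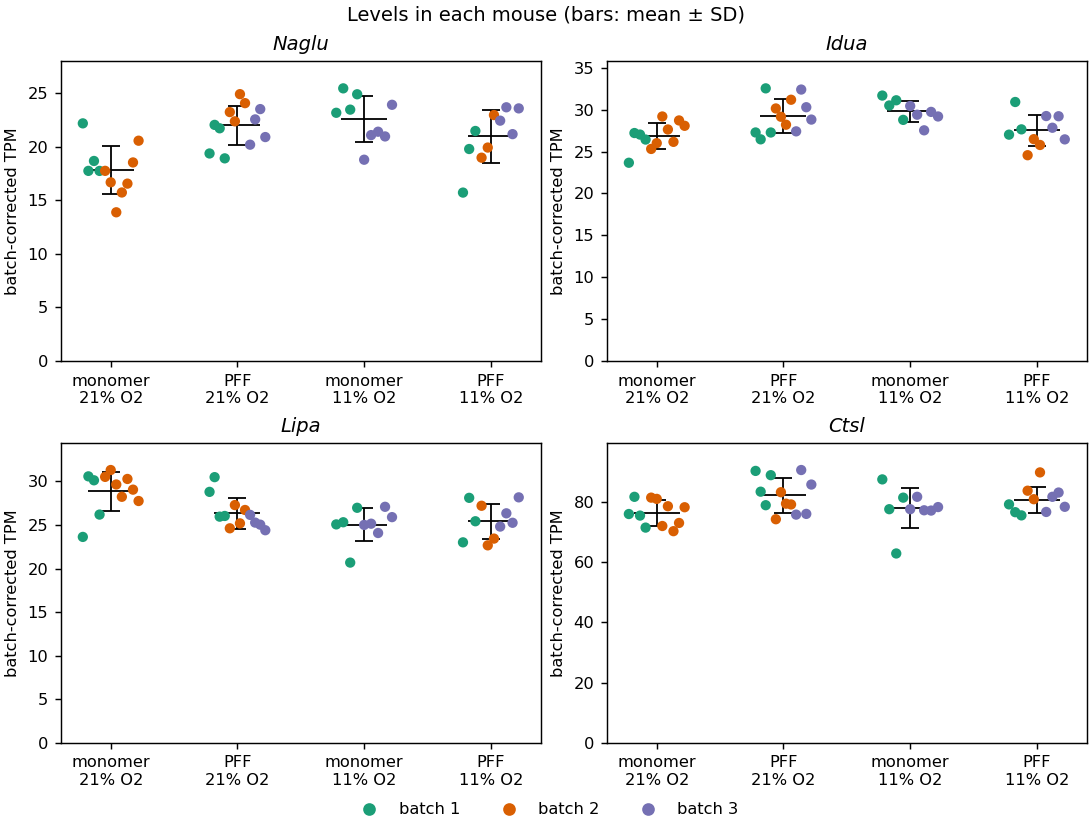
Batch-corrected TPM (y axes, from 0) of *Naglu*, *Idua*, *Lipa* and *Ctsl* in each of the 42 mice, by group (x axes). Points are mice, coloured by harvest batch, and bars give the mean ± SD. For *Naglu*, the monomer mice at 21% O2 have a median of 17.7 TPM, below the medians of 21.3 to 23.2 TPM in the other 3 groups, with overlapping ranges.

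Within batches, the counts before correction gave the following values for *Naglu*. In batch 1, TPM before correction ranged from 14.8 to 17.4 in 4 monomer and from 16.4 to 18.2 in 4 PFF mice at 21% O2, and from 19.5 to 20.6 in 4 monomer and from 14.2 to 17.8 in 3 PFF mice at 11% O2. The monomer mice at 11% O2 lay above all others of that batch, and the other 3 groups overlapped. In batch 2, 7 monomer mice at 21% O2 ranged from 12.3 to 19.3, and 4 PFF mice at 21% O2 from 20.7 to 23.3, without overlap. The log2 difference between PFF and monomer mice at 21% O2 was 0.18 ± 0.098 in batch 1 (edgeR adjusted p = 0.431) and 0.50 ± 0.084 in batch 2 (edgeR adjusted p = 0.000155). That between 11% and 21% O2 in monomer mice, which only batch 1 could give, was 0.36 ± 0.097 (edgeR adjusted p = 0.0376). At 11% O2, the log2 difference between PFF and monomer mice was -0.28 ± 0.10 in batch 1 and 0.14 ± 0.088 in batch 3, so its direction differed between batches, and neither was called.

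**Figure D2:**
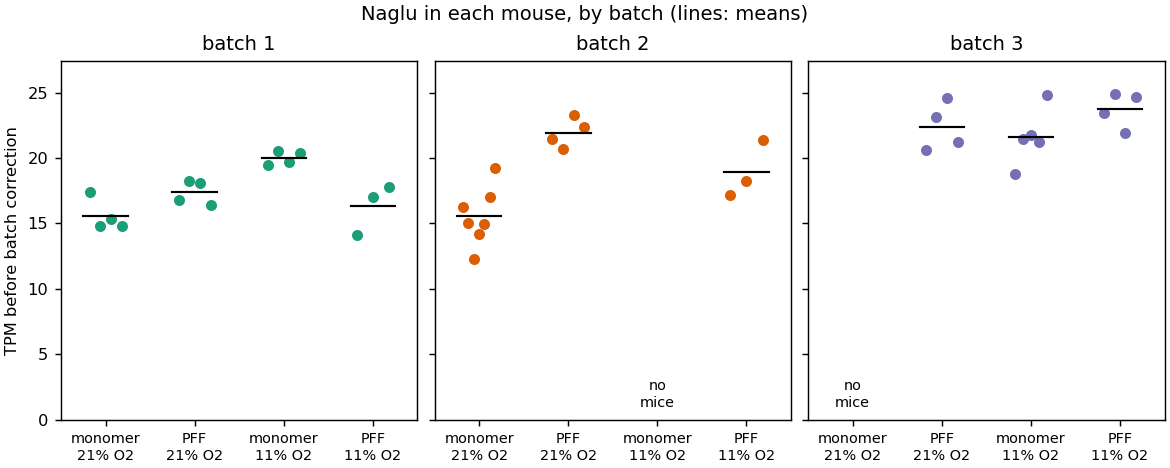
*Naglu* TPM before batch correction (y axis, from 0) in each of the 42 mice, by group (x axis) and harvest batch (panels). Points are mice and lines are means. In batch 2 the PFF mice at 21% O2 (20.7 to 23.3 TPM) lie above the monomer mice at 21% O2 (12.3 to 19.3 TPM), and in batch 1 the monomer mice at 11% O2 (19.5 to 20.6 TPM) lie above the other groups.

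*Idua*, whose product removes iduronic acid from heparan and dermatan sulfate, had the second smallest p with PFF at 21% O2 and the same directions as *Naglu*, with smaller differences. Its level ranged from 23.7 to 29.2 TPM (median 27.0) in monomer and from 26.5 to 32.5 TPM (median 28.99) in PFF mice at 21% O2. At 11% O2 it ranged from 27.5 to 31.7 TPM (median 29.7) in monomer and from 24.6 to 30.9 TPM (median 27.3) in PFF mice. All groups overlapped. The log2 difference was 0.14 ± 0.039 for PFF at 21% O2 (edgeR adjusted p = 0.0188), 0.15 ± 0.042 for 11% O2 in monomer mice (edgeR adjusted p = 0.00969) and -0.24 ± 0.057 for the interaction (edgeR adjusted p = 0.0143). These passed the threshold on the adjusted p but not that of 0.25 on the log2 difference. In batch 1, TPM of *Idua* before correction ranged from 21.7 to 23.3 in monomer and from 24.1 to 26.6 in PFF mice at 21% O2, without overlap. In batch 2 the ranges of 23.7 to 27.9 and 26.5 to 29.8 TPM overlapped. Exons of *Slc26a1* and *Dgkq* on the other strand covered 3.35% and 2.95% of the exon bases of *Idua*, which lies at chr5:108660331-108684557.

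*Sgsh*, a further heparan sulfate enzyme that removes sulfate groups and belongs to a list of 21 other lumenal proteins, was the only gene called among 82 further lysosomal genes. That call was made with 11% O2 in monomer mice, where edgeR called 7.23% of all genes tested. *Sgsh* ranged from 6.12 to 8.16 TPM in monomer and from 6.52 to 9.70 TPM in PFF mice at 21% O2, and from 7.56 to 10.5 TPM in monomer and from 6.90 to 10.6 TPM in PFF mice at 11% O2. It rose with 11% O2 in monomer mice by 0.33 ± 0.081 on the log2 scale (edgeR adjusted p = 0.00456). With PFF at 21% O2 its log2 difference was 0.24 ± 0.076 (edgeR adjusted p = 0.0458), just inside the fold threshold and so not called. *Ids*, which removes sulfate from iduronic acid in the same pathway, had log2 differences of -0.12 with PFF at 21% O2 and -0.06 with 11% O2 in monomer mice (edgeR adjusted p = 0.224 and 0.573).

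Over the list, the calls were counted beside those of all genes tested. With PFF at 21% O2, 1 of 42 genes was called, against 3.7% of all genes tested, 2 passed the adjusted p alone, against 7.59%, and 8 had an unadjusted p under 0.05, against 22.4%. With 11% O2 in monomer mice, 1 of 42 was called, against 7.23%, 5 passed the adjusted p alone, against 13.2%, and 11 had an unadjusted p under 0.05, against 27.7%. For the interaction, 1 of 42 was called, against 2.14%, 2 passed the adjusted p alone, against 2.32%, and 4 had an unadjusted p under 0.05, against 15.4%. With 11% O2 in PFF mice edgeR called 0 of 42, against 0.58%, with 0 against 0.815% at the adjusted p alone and 4 against 10.7% at an unadjusted p under 0.05, and DESeq2 called 0. With PFF at 11% O2 edgeR called 0 of 42, against 0%, with 1 against 3.92% at an unadjusted p under 0.05, and DESeq2 called 0. The largest log2 difference of the 42 genes in either direction, -0.41, was that of *Naglu* for the interaction.

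The directions were less even. The log2 difference was above 0 for 31 of 42 genes with PFF at 21% O2 (median 0.03), against 50.4% of all genes tested, and for 33 of 42 with 11% O2 in monomer mice (median 0.06), against 47.9%. It was above 0 for 17 of 42 with PFF at 11% O2 (median -0.01), against 49.6%, for 22 of 42 with 11% O2 in PFF mice (median 0.01), against 46.8%, and for 12 of 42 for the interaction (median -0.04), against 49.7%. PFF at 21% O2, 11% O2 in monomer mice and the interaction all use the monomer mice at 21% O2. Their counts of direction are therefore not independent of each other. In batch 1, 29 of 42 genes were higher with PFF at 21% O2, and in batch 2, 20 of 42. The excess of higher genes with PFF at 21% O2 was thus measured in batch 1 and not in batch 2.

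**Figure D3:**
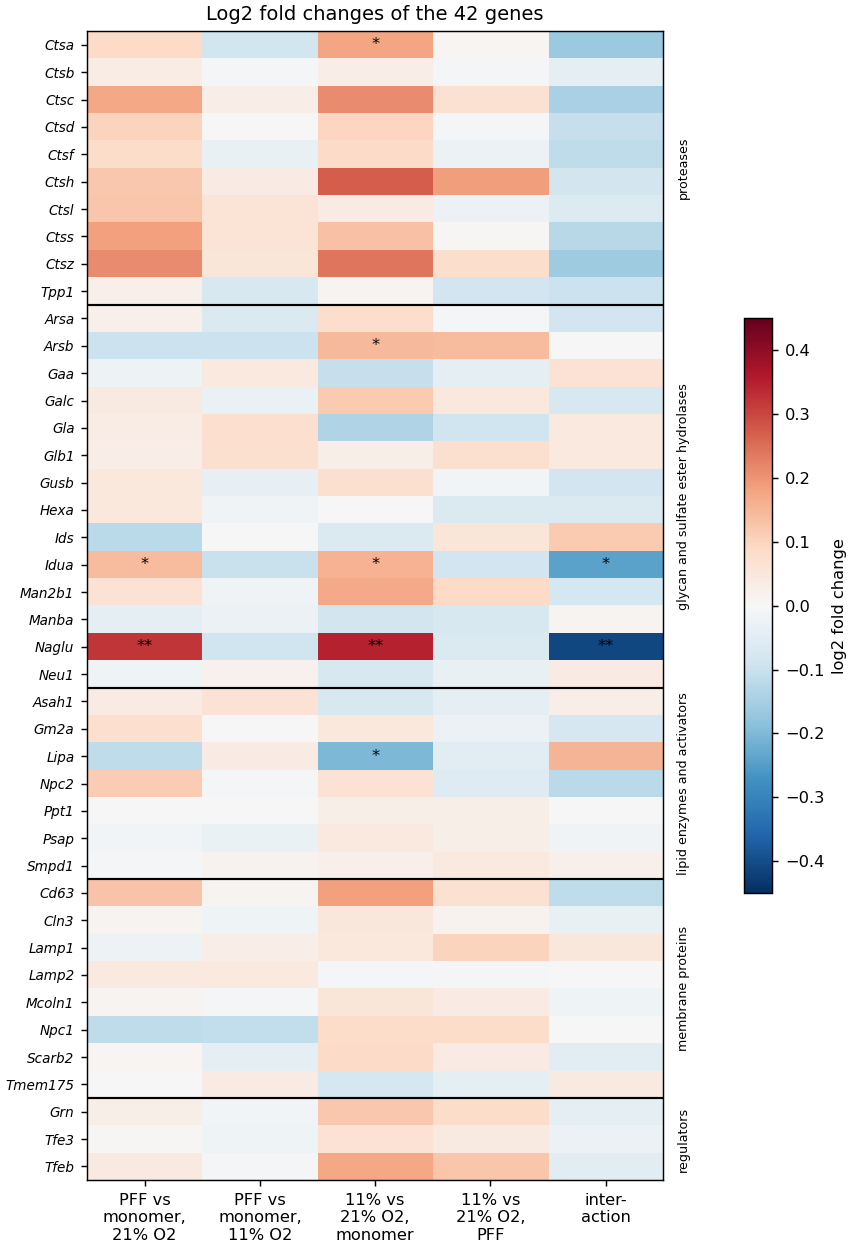
Log2 fold changes (colour) of the 42 genes (rows, by role) in the 5 comparisons (columns), from edgeR on batch-corrected counts of 42 mice. 1 star marks an adjusted p under 0.05, and 2 stars a log2 change also beyond 0.25. *Naglu* alone carries 2 stars, and the 10 protease genes are above 0 for PFF at 21% O2 and for 11% O2 in monomer mice, and below 0 for the interaction.

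Among the proteases, all 10 genes had log2 differences above 0 both with PFF at 21% O2 (0.02 to 0.21, median 0.11) and with 11% O2 in monomer mice (0.01 to 0.27, median 0.11), and all 10 were below 0 for the interaction (median -0.11). These comparisons all use the monomer mice at 21% O2, so their directions are not independent. The 10 genes are not independent either, since all correlated with the same microglia markers across mice, as described below. EdgeR and DESeq2 called 0 of the 10 in each of the 5 comparisons, and 2 had an unadjusted p under 0.05 in each of the first 2. *Ctsz*, a carboxypeptidase, had the largest difference with PFF at 21% O2: its level ranged from 117 to 188.3 TPM (median 161.3) in monomer and from 129 to 218.2 TPM (median 183.2) in PFF mice. The log2 difference was 0.21 ± 0.086 (edgeR adjusted p = 0.127). *Ctsl*, a cysteine endopeptidase, had the smallest p of the 10 there, with 70.3 to 81.7 TPM (median 76.0) in monomer and 74.3 to 90.6 TPM (median 81.3) in PFF mice, and a log2 difference of 0.12 ± 0.045 (edgeR adjusted p = 0.0809). In both the groups overlapped.

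*Ctsa* encodes a carboxypeptidase that also shields other hydrolases from degradation. It ranged from 89.0 to 118 TPM (median 110) in monomer mice at 21% O2 and from 105 to 142 TPM (median 122.9) in monomer mice at 11% O2, with a log2 difference of 0.18 ± 0.049 (edgeR adjusted p = 0.0114), inside the fold threshold. In PFF mice the log2 difference between the O2 levels was 0.01 ± 0.046, and the interaction was -0.17 ± 0.067 (edgeR adjusted p = 0.193). *Tpp1*, a tripeptidyl peptidase gene, had log2 differences of -0.07 ± 0.042 with PFF at 11% O2 and -0.09 ± 0.040 with 11% O2 in PFF mice (edgeR adjusted p = 1.00 and 0.430). Its levels were 74.7 to 91.4 TPM in PFF mice at 11% O2 and overlapped those of the other groups.

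The microglia markers had log2 differences mostly of the same sign as the proteases, and none was called. Of 14 such genes, 13 had log2 differences above 0 with PFF at 21% O2 (median 0.19) and 14 with 11% O2 in monomer mice (median 0.19), and 13 were below 0 for the interaction (median -0.15). These comparisons again share the monomer mice at 21% O2. EdgeR called 0 of the 14 in each, with 2, 4 and 0 at an unadjusted p under 0.05 of the 14, beside 22.4%, 27.7% and 15.4% of all genes. Their summed level ranged from 1147 to 2189 TPM in monomer and from 1195 to 2543 TPM in PFF mice at 21% O2, and from 1369 to 2394 TPM in monomer and from 1488 to 2723 TPM in PFF mice at 11% O2. Within batches the counts were as follows. With PFF at 21% O2, 10 of 10 proteases and 14 of 14 microglia markers were higher in batch 1 (medians 0.19 and 0.37), and 6 of 10 and 7 of 14 in batch 2 (medians 0.03 and 0.01). With 11% O2 in PFF mice, 0 of 10 and 2 of 14 were higher in batch 1, and 8 of 10 and 14 of 14 in batch 2. In batch 3, 5 of 10 and 6 of 14 were higher in that comparison. Astrocyte and dopaminergic markers differed between the batches too. With PFF at 21% O2, 7 of 7 astrocyte and 0 of 8 dopaminergic markers were higher in batch 1, and 2 of 7 and 8 of 8 in batch 2. With 11% O2 in PFF mice, 1 of 7 and 8 of 8 were higher in batch 1, and 6 of 7 and 0 of 8 in batch 2. In batch 3 these counts were 3 of 7 and 8 of 8. The part of microglia or of these cell types in the protease differences between groups was not tested.

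The relation of each of the 42 genes to the microglia markers was measured across mice within groups, as the correlation of log2(TPM + 1), minus the group mean, with the mean standardised level of the 14 markers. None of the 14 markers is among the 42 genes. Of 42 correlations, 27 (64.3%) passed an adjusted p of 0.05 (two-sided permutation test within groups, 100000 permutations, Benjamini-Hochberg over all genes): 22 were positive and 5 negative. The score was related to a large share of all genes, since 6307 of 14825 (42.5%) passed the same test, 2852 with a positive and 3455 with a negative r. The median r was 0.40 over the 42 genes and -0.02 over all genes. All 10 proteases, 5 of 8 membrane proteins, 2 of 3 regulators, 2 of 7 lipid genes and 3 of 14 glycan hydrolases were positive and passed. The median r was 0.76 among proteases, 0.46 among regulators, 0.45 among membrane proteins, 0.28 among lipid genes and 0.09 among glycan hydrolases.

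*Ctss*, a cysteine protease of antigen processing, followed the microglia markers most closely, with Pearson's r = 0.96 and Spearman's rho = 0.93 over 42 mice (permutation p = 1e-05 for both, the smallest these permutations can give, adjusted p = 8.51e-05 for r). Its level ranged from 339 to 664 TPM in monomer and from 369 to 758 TPM in PFF mice at 21% O2, and from 390 to 655 TPM in monomer and from 395 to 807 TPM in PFF mice at 11% O2, so mice of a group differed far more than group medians of 456 to 517 TPM. The next were *Ctsh* (r = 0.90, rho = 0.88), *Ctsd* (r = 0.89, rho = 0.90) and *Gm2a*, which encodes an activator of ganglioside breakdown (r = 0.87, rho = 0.90), each with a permutation p of 1e-05 and an adjusted p of 8.51e-05 for r. In size of r these 4 genes lay above at least 99.3% of all genes. Without the 2 mice farthest from the median marker score, r was 0.95 for *Ctss*, 0.90 for *Ctsh*, 0.86 for *Ctsd* and 0.83 for *Gm2a*. Within batches of 15, 14 and 13 mice, r was 0.95 to 0.98 for *Ctss*, 0.89 to 0.93 for *Ctsh*, 0.86 to 0.95 for *Ctsd* and 0.85 to 0.93 for *Gm2a*.

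The 5 genes with negative correlations that passed were *Gaa*, *Ids*, *Arsa*, *Smpd1* and *Mcoln1*. *Gaa*, the acid α-glucosidase of glycogen breakdown, had r = -0.88 and rho = -0.87 (permutation p = 1e-05 for both, adjusted p = 8.51e-05 for r). Its level ranged from 233 to 462 TPM in monomer and from 210 to 514 TPM in PFF mice at 21% O2, and from 258 to 447 TPM in monomer and from 269 to 430 TPM in PFF mice at 11% O2. Without the 2 farthest mice its r was -0.87, and within batches -0.94, -0.82 and -0.94. For *Ids*, *Arsa*, the sulfatase of the myelin lipid sulfatide, and *Smpd1*, the acid sphingomyelinase, r was -0.80, -0.73 and -0.60 (permutation adjusted p = 8.51e-05, 8.51e-05 and 0.00056, 42 mice). For *Mcoln1*, a calcium channel gene of the lysosomal membrane, r was -0.38 (permutation adjusted p = 0.0459) and changed sign in batch 3 (0.17). Its rho of -0.32 did not pass (permutation adjusted p = 0.0665 over the 42 genes).

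For *Naglu* and *Idua* the relation did not pass: r was 0.06 for *Naglu* (rho = 0.07, permutation adjusted p = 0.779 for r) and -0.12 for *Idua* (rho = -0.19, permutation adjusted p = 0.593 for r) over 42 mice. Within batches, r of *Naglu* was -0.08, 0.29 and 0.26.

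**Figure D4:**
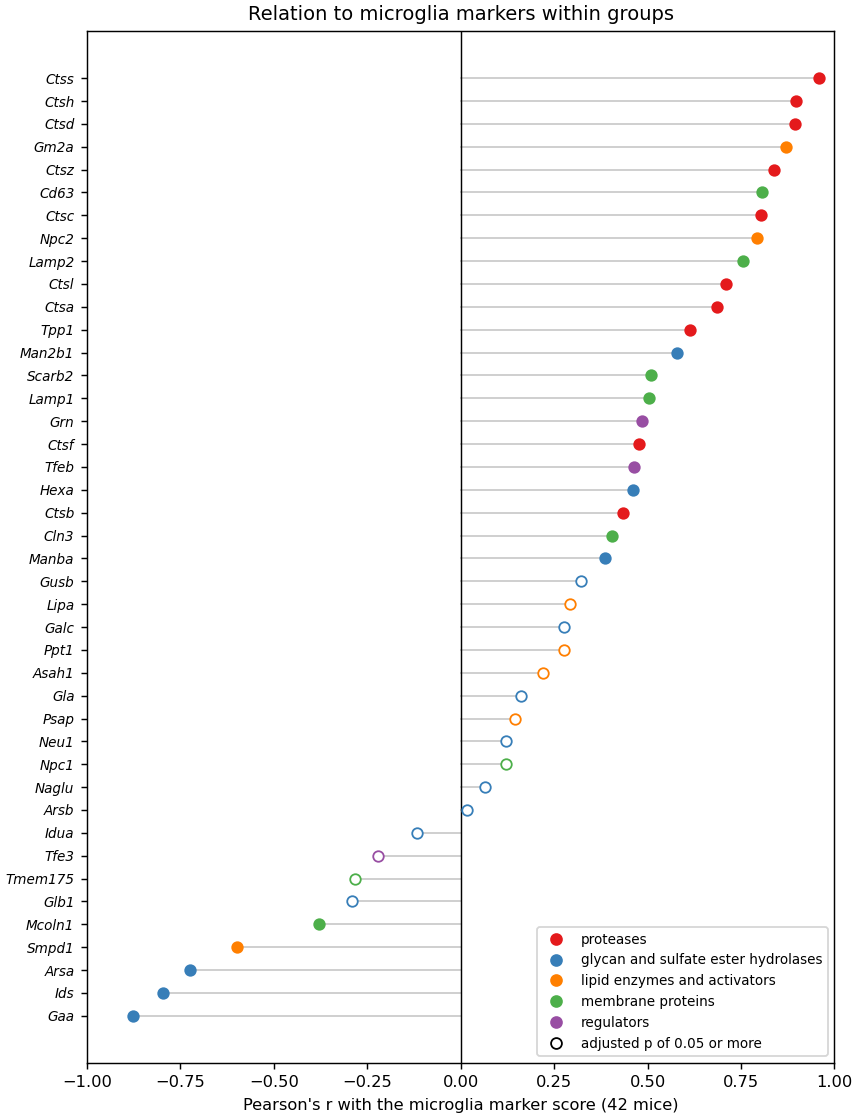
Pearson's r across 42 mice (x axis) between each of the 42 genes (rows) and the microglia marker score, both with group means removed. Colours give the role, and filled points have an adjusted p under 0.05 (permutation within groups). The 10 proteases are all positive, *Gaa* is the most negative at -0.88, and *Naglu* lies near 0 at 0.06.

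The microglia marker score was itself related to other cell types. Across the 42 mice it correlated with the astrocyte markers (r = 0.85, rho = 0.85, permutation adjusted p = 9e-05 for both), the endothelial markers (r = 0.57, rho = 0.52, permutation adjusted p = 0.000694 and 0.00314), the dopaminergic markers (r = -0.66, rho = -0.71, permutation adjusted p = 9e-05 for both) and the neuronal markers (r = -0.57, rho = -0.58, permutation adjusted p = 0.000594 and 0.00054), among 27 correlations of 9 marker lists with the score, *Naglu* and *Gaa* that were computed after the other results were seen. The red cell (r = 0.49, rho = 0.44, permutation adjusted p = 0.00435 and 0.0120) and pericyte markers (r = 0.44, rho = 0.46, permutation adjusted p = 0.0110 and 0.0103) passed as well. Without the 2 farthest mice the first 4 values of r were 0.81, 0.57, -0.69 and -0.55, and in each batch they kept their sign. *Gaa* correlated positively with the dopaminergic markers (r = 0.61, rho = 0.61, permutation adjusted p = 0.000203 and 0.000338) and negatively with the astrocyte markers (r = -0.70, rho = -0.69, permutation adjusted p = 9e-05 for both). It also correlated with the endothelial (r = -0.58), red cell (r = -0.55), neuronal (r = 0.49) and pericyte markers (r = -0.41), with permutation adjusted p of 0.000694, 0.000911, 0.00435 and 0.0250. *Naglu* correlated with 0 of the 9 lists at an adjusted p of 0.05 by Pearson's r. Its closest was the oligodendrocyte list (r = 0.34, rho = 0.38, permutation adjusted p = 0.0629 and 0.0347). The oligodendrocyte markers moved between groups in the directions of *Naglu*: 8 of 8 were above 0 with PFF at 21% O2 and with 11% O2 in monomer mice, and 8 of 8 were below 0 for the interaction. EdgeR called 1, 3 and 2 of the 8 in these comparisons, beside 3.7%, 7.23% and 2.14% of all genes tested. All of these comparisons use the monomer mice at 21% O2. Within batches, 7 of 8 in batch 1 and 8 of 8 in batch 2 were higher with PFF at 21% O2. Their summed level ranged from 8576 to 11873 TPM in monomer and from 8603 to 11447 TPM in PFF mice at 21% O2, and from 9006 to 13761 TPM in monomer and from 9124 to 11668 TPM in PFF mice at 11% O2. The red cell markers had the same directions for 5 of 5 genes in each of these comparisons, as did most pericyte and choroid plexus markers. Most neuronal markers had the opposite directions. The part of the oligodendrocyte or other markers in the result for *Naglu* was not tested between groups.

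**Figure D5:**
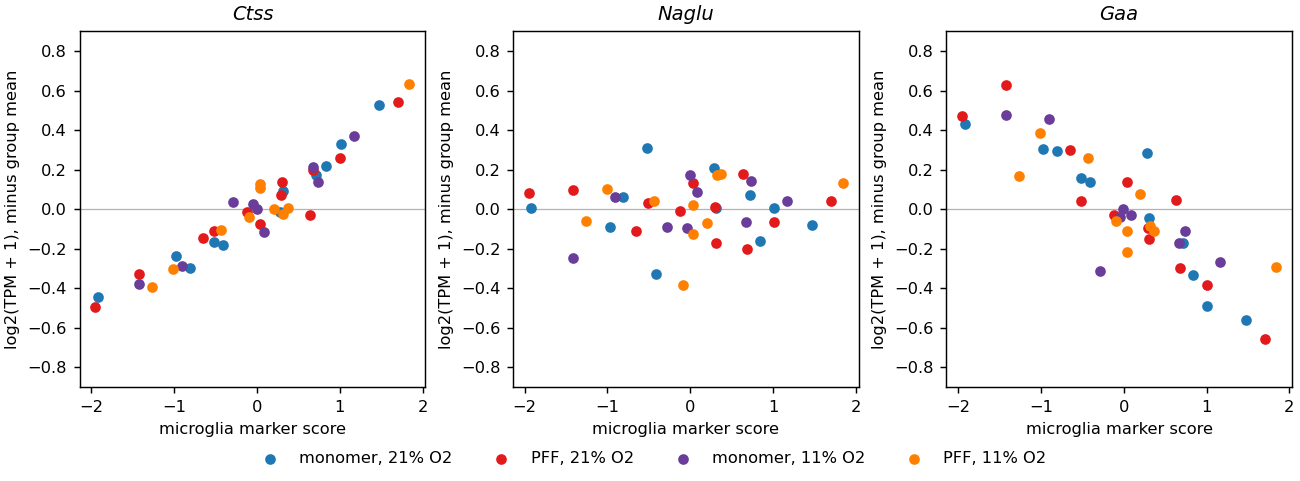
Log2(TPM + 1) minus the group mean (y axes) of *Ctss*, *Naglu* and *Gaa* against the microglia marker score (x axes), in 42 mice coloured by group. *Ctss* rises with the score (r = 0.96), *Gaa* falls (r = -0.88) and *Naglu* shows no slope (r = 0.06), in mice of all 4 groups.

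Among the other glycan hydrolases, *Arsb*, a sulfatase of dermatan and chondroitin sulfate, had the smallest p of the 42 genes with 11% O2 in PFF mice. Its level ranged from 57.4 to 74.8 TPM (median 63.2) in monomer and from 53.3 to 63.8 TPM (median 58.7) in PFF mice at 21% O2, and from 62.5 to 75.2 TPM (median 72.1) in monomer and from 53.6 to 72.3 TPM (median 64.8) in PFF mice at 11% O2. The log2 difference between 11% and 21% O2 was 0.14 ± 0.049 in monomer mice (edgeR adjusted p = 0.0431, inside the fold threshold) and 0.14 ± 0.047 in PFF mice (edgeR adjusted p = 0.177). The interaction was -0.00 ± 0.068 on the log2 scale. With PFF it was -0.10 ± 0.046 at 21% O2 and -0.10 ± 0.050 at 11% O2, and neither passed (edgeR adjusted p = 0.193 and 1.00). Of the 14 genes of this role, 9 were above 0 with PFF at 21% O2 and 9 with 11% O2 in monomer mice, with medians of 0.03 and 0.05.

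Among the lipid genes, *Lipa*, the acid lipase of cholesteryl ester and triglyceride breakdown, was the only one of the 42 genes that was lower with 11% O2 in monomer mice at an adjusted p under 0.05. It ranged from 23.6 to 31.3 TPM (median 29.6) in monomer and from 24.4 to 30.5 TPM (median 25.99) in PFF mice at 21% O2, and from 20.7 to 27.1 TPM (median 25.1) in monomer and from 22.7 to 28.2 TPM (median 25.3) in PFF mice at 11% O2. The log2 difference of -0.20 ± 0.050 (edgeR adjusted p = 0.00501) did not reach the fold threshold. In batch 1 it was -0.17 ± 0.066 (edgeR adjusted p = 0.154). With PFF at 21% O2 the log2 difference was -0.12 ± 0.046 (edgeR adjusted p = 0.119), with 0.00 ± 0.066 in batch 1 and -0.19 ± 0.058 in batch 2, where it passed the adjusted p alone (edgeR, 0.0434). *Psap*, the most abundant of the 42 genes, had log2 differences between -0.03 and 0.04 in the 5 comparisons, with standard errors of 0.043 to 0.064.

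Of the 8 membrane proteins, edgeR called 0 in each comparison, with at most 1 at an unadjusted p under 0.05, and DESeq2 called 0. Their log2 differences ranged from -0.11 to 0.13 with PFF at 21% O2 and from -0.08 to 0.18 with 11% O2 in monomer mice. *Lamp1* lay at medians of 553, 548, 584 and 586 TPM in monomer and PFF mice at 21% O2 and in monomer and PFF mice at 11% O2. The regulators *Tfeb*, *Tfe3* and *Grn* were each above 0 with 11% O2 both in monomer (0.06 to 0.17) and in PFF mice (0.04 to 0.13) on the log2 scale, and 0 of 3 passed an adjusted p of 0.05 by edgeR. For *Tfeb* the log2 difference was 0.17 ± 0.077 in monomer mice (edgeR adjusted p = 0.131). The 9 genes with GTCACGTG in the promoter had median log2 differences of 0.03 with PFF at 21% O2 and 0.06 with 11% O2 in monomer mice, and the 29 with a promoter but without it 0.04 and 0.06.

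The further lysosomal genes were described by lists. Of 18 subunits of the proton pump (V-ATPase), 12 were below 0 with PFF at 21% O2 (median -0.03) and 14 with 11% O2 in monomer mice (median -0.06), and edgeR called 0, with 1 and 4 at an unadjusted p under 0.05. With 11% O2 in monomer mice, *Atp6v1h* passed the adjusted p (-0.13 ± 0.045 on the log2 scale, edgeR adjusted p = 0.0489), inside the fold threshold. Of 21 other lumenal proteins, 14 and 16 were above 0, and *Sgsh* alone was called. Of 18 other membrane proteins, 10 and 11 were above 0, and of 12 genes of sorting to the lysosome, 4 and 7. Of 13 genes of nutrient sensing at the lysosome, 8 and 6 were above 0. EdgeR called 0 of these last 3 lists in each comparison, with 2 and 3, 2 and 3, and 3 and 4 at an unadjusted p under 0.05. Over all genes tested, 50.4% were above 0 with PFF at 21% O2 and 47.9% with 11% O2 in monomer mice. The shares with an unadjusted p under 0.05 by edgeR were 22.4% and 27.7%, and those called 3.7% and 7.23%.

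Other markers also differed between the groups. Red cell markers were higher with 11% O2 in monomer mice for 5 of 5 genes, all called (log2 1.19 to 1.68), as were pericyte markers for 5 of 5 (median 0.58), and 5 of 7 endothelial markers were called (median 0.52). EdgeR called 7.23% of all genes tested in this comparison. Border macrophage markers were low, with a summed level of 6.47 to 30.9 TPM over the 42 mice. Neutrophil markers were at or near 0: *Ngp* was at 0 in 23 mice and *Camp* in 14, and none of the 4 passed the filter. The part of these cell types in the differences of lysosomal genes was not tested.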

How the data were processed

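SN of 48 mice was sequenced as paired reads from poly(A) RNA. The authors aligned reads to mm10 with STAR 2.7.5a, removed duplicates with Picard 2.21.9 and counted them per GENCODE gene with featureCounts 2.0.1 (versions from the submitters' processing notes), keeping primary alignments and naming no strand option. They deposited raw counts and TPM for 55385 genes in 48 mice. They then left out 6 mice and applied ComBat-seq by harvest batch, with O2 level and type of injection as covariates. They deposited the batch-corrected counts and TPM for 19601 genes in 42 mice.

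Batch-corrected counts were tested here with edgeR 4.0.16 in R 4.3.3 (TMM, filterByExpr, quasi-likelihood, 4 groups in 1 fit). Calls required a log2 change beyond 0.25 and an adjusted p (Benjamini-Hochberg, 14839 genes) under 0.05. SE is the absolute log2 change divided by the square root of F. Within-batch values came from a fit of group by batch on the counts before correction. Permutation p-values of the microglia correlations were planned with adjustment over the 42 genes and are given adjusted over all genes, which was added after seeing the data. The fit was tested on simulated data.

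Genes named with values were those called, the 3 smallest p per comparison, the 5 highest and 2 lowest levels, the 5 strongest correlations and called genes of the further lists. Other genes given as examples, such as *Ctsz*, *Ids* and *Tfeb*, were added after their values were seen. P-values measure the spread between mice. For the main fit this is the spread left after batch correction. The fit had no batch term and did not carry the uncertainty of the correction, so its p-values can be too small. The members and lists were chosen with earlier results of these data known. Alternatives were DESeq2 1.42.0, its size factors, no filter, no fold threshold, a batch term in 42 or 48 mice, only batch 1, a replicate block, and limma 3.58.1 on log2(TPM + 1), also at a mean TPM of at least 1, or on log2(TPM + 0.1). Leaving out each mouse, and other settings of the correlations, were added after seeing the data. Gene positions and exon overlaps are those of the same identifiers in GENCODE vM21, an earlier release than the one the authors counted with.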

Additional observations from a re-analysis of the deposited data

Results flagged for a closer look

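The difference in the PFF response between 11% and 21% O2 was past the threshold for 1 of the 42 genes, *Naglu* (interaction -0.41 on the log2 scale, adjusted p = 0.0109 by edgeR). The call was lost in batch 1 alone and with all 48 mice. Single mice lay apart from the rest of their group for 5 of 34 gene and group pairs examined by Dixon's gap ratio, which chance gives for about 1 in 20 groups. The ratio was computed only for groups of at most 10 mice, which are the groups of 9 and 10 mice at 11% O2. The groups of 11 and 12 mice at 21% O2 were not examined, so outlying mice cannot be compared between O2 levels. At 11% O2, 1 PFF mouse had 38.3 TPM of *Ctsh*, against 27.3 TPM in the next mouse, and 807 TPM of *Ctss*, against 569 TPM in the next. In monomer mice at 11% O2, the lowest level was 62.9 TPM for *Ctsl* (next 77.1), 478 TPM for *Lamp1* (next 559) and 20.7 TPM for *Lipa* (next 24.1), all in 1 mouse of batch 1.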

How the results depend on the processing

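Of 55 recomputed counts of called genes, 47 stayed within 1.5 times the value reported. With PFF at 21% O2 the count was 0 in batch 1 alone and 2 with the adjusted p alone. With 11% O2 in monomer mice it was 2 (*Ctsz*, *Naglu*) with batch as a covariate in 48 mice and 5 with the adjusted p alone. For the interaction it was 0 in 48 mice, 0 in batch 1 alone and 2 with the adjusted p alone. Leaving out each of 42 mice gave 1 to 1 for PFF at 21% O2, 0 to 0 at 11% O2, 1 to 2 for 11% O2 in monomer mice, 0 to 0 in PFF mice and 1 to 2 for the interaction. The value of 2 came without monomer mice 5 or 6 at 11% O2 or 12 at 21% O2 in the former. In the latter it added *Idua*, without PFF mice 3, 9 or 11 or monomer mouse 7 at 11% O2, or PFF mice 2 or 4 or monomer mice 7, 11 or 12 at 21% O2. *Naglu* kept its call without any 1 mouse, at log2 0.29 to 0.36, 0.32 to 0.38 and -0.45 to -0.38 for the 3 comparisons that called it. In batch 1 alone, it was 0.18 (adjusted p = 0.364, edgeR) with PFF at 21% O2 and -0.46 (0.307) for the interaction. In 48 mice the interaction was -0.38 (adjusted p = 0.0999), and the log2 difference turned to 0.0057 with PFF at 11% O2 and 0.0286 with 11% O2 in PFF mice. The mice left out by the authors included a PFF mouse at 11% O2 with 33.2 TPM of *Naglu* before correction. The cause was not tested.

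Mice with the same replicate number did not deviate together in the median (correlation 0.00285 over 54 pairs, 21 over 0.1), against -0.0144 over 605 pairs with other numbers. The study matched mice by weight, age, delivery date and, where it could, cage before assigning them at random. The labels do not say whether the replicate number follows that matching, and these correlations cannot exclude it. With the replicate number as a block, the count was 2 for 11% O2 in monomer mice (*Ctsz*, *Naglu*), and the block changed no other count beyond 1.5 times. The number of genes related to the microglia markers was 27 with a pseudocount of 0.1, with batch means removed and with p adjusted over the 42 genes or over all genes, and 23 without the 2 farthest mice. All 10 proteases were above 0 with PFF at 21% O2 and with 11% O2 in monomer mice in all 11 settings, which include batch 1 alone but not batch 2, where 6 of 10 were above 0 with PFF at 21% O2. Counts of 139 to 269 per mouse limit *Naglu*.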
